A study of Mus musculus with 10 samples.

Results

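The ribosome biogenesis genes examined here are 38 genes for the factors that make and assemble ribosomal subunits in the nucleolus. They were taken by gene name from the array annotation, and all 38 were represented and passed the filter on dim probes, among 23979 genes tested in all. Liver RNA was measured on 10 Agilent 2-colour arrays, 2 at each of 3, 8, 24, 48 and 72 h. On each array the Cy5 channel held RNA from the liver of a female C57BL/6 mouse, 8 weeks old and fasted for 24 h, that had received 350 mg/kg acetaminophen in phosphate buffered saline into the peritoneum. The Cy3 channel held RNA from the liver of a fasted female of the same strain and age that had received the saline alone. Acetaminophen in excess injures hepatocytes through a reactive metabolite, and the surviving liver then regenerates. The labels number the mice, and the 2 arrays of a time point held different acetaminophen mice and different vehicle mice, so the spread between them includes that between animals. The treatment protocol gives saline for the controls while their sample labels give the agent as none, and they are called vehicle after the protocol. Both groups shared the fast.

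Ribosome production begins with the transcription of a long ribosomal RNA precursor by RNA polymerase I. Small nucleolar RNPs, which are complexes of a guide RNA with a few core proteins, then modify the precursor, and a large assembly called the small subunit processome folds and cuts it. Further factors build the large subunit and carry both particles towards the cytoplasm, and in liver this machinery is known to be stepped up when hepatocytes grow before division.

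All values are log2 ratios of acetaminophen over vehicle unless a level is named, so 1 is a 2-fold difference. Array values are given in the order of the lower number of the acetaminophen mouse and then mouse 3 (mice 1 and 3, and at 8 h mice 2 and 3), which is also that of the 2 scan days, and a mean is given ± SE of the fit (n = 2 arrays). Adjusted p-values are those of limma over all 23979 genes with Benjamini-Hochberg adjustment, and a gene rose or fell where the adjusted p was under 0.05. Agreement between the 2 arrays of a time point, as the correlation of log2 ratios across genes (which are no replicates), was lowest at 72 h (0.239), stood at 0.676 for the 3 h pair, and ranged from 0.805 to 0.859 for the other times. Between 45.1% and 76.6% of spots per array were well above background in the Cy5 channel and between 60.4% and 84.1% in the Cy3 channel, and the members lay at a median percentile of 75.6 of mean intensity among the genes tested. Acetaminophen RNA was labelled with Cy5 on every array, and at a single time point dye and treatment therefore cannot be told apart, whereas a dye effect that all arrays share cancels in differences between time points. In bulk liver RNA, fewer cells of a type and less RNA per cell cannot be told apart.

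The members lay mostly below vehicle at 3 h and mostly above it from 8 to 48 h, and no member was called at 72 h. At 3 h, 7 of the 38 fell and 1 rose, where 2.93% of all genes fell and 2.45% rose. At 8 h, 15 rose and 0 fell, where 7.35% of all genes rose and 8.43% fell. At 24 h, 19 rose and 2 fell, where 7.67% of all genes rose and 12.1% fell. At 48 h, 31 rose and 0 fell, where 18.9% of all genes rose and 14.3% fell. At 72 h limma called 0 members in either direction, where 0.00834% of all genes rose and 0.00834% fell. At an unadjusted p under 0.05, 5 members passed, 3 higher and 2 lower, where 11.3% of all genes passed in either direction. The median log2 ratio of the members was -0.31, 0.21, 0.47, 0.72 and -0.04 in the order of the time points, and that of all genes stayed between -0.01 and 0.00.

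Most members had the same direction on both arrays from 3 to 48 h. Both arrays lay below 0 for 31 of 38 at 3 h, where 35.6% of all genes did. Both lay above 0 for 28 at 8 h (34.2% of all genes), 29 at 24 h (34%) and 33 at 48 h (36.9%). At 72 h both lay above 0 for 9 and below 0 for 9, where 25.9% and 27.6% of all genes did. In each of the 75 calls of a member at a time point both arrays had the same sign, and the acetaminophen levels did not overlap the vehicle levels. The test itself favours such agreement among the genes it calls. Counted over all members, called or not, acetaminophen levels lay below both vehicle levels for 21 at 3 h, where 21.8% of all genes did, and above both for 25 at 8 h (21.9% of all genes), 25 at 24 h (18.8%) and 32 at 48 h (27.1%). The median member stood at -0.36 and -0.32 on the 3 h arrays, 0.31 and 0.26 at 8 h, 0.57 and 0.55 at 24 h, and 0.63 and 0.70 at 48 h. At 72 h it was -0.17 on one array and 0.11 on the other. Leaving out 1 array left 1 call at 3 h without mouse 1 and 3 without mouse 3, 5 at 8 h without mouse 2, 9 at 24 h without mouse 1, and 18 at 48 h without mouse 3. When the arrays were only centred on their medians in place of the intensity-dependent loess, the calls were 0 at 3, 8 and 24 h and 8 at 48 h, and the member median was -1.12, 0.06, -0.01 and 0.99. With slide as a block the calls at 3 h were 0, and with the software's own ratios 4. With background estimated over all spots, as described with the processing, 13 members were called at 24 h, 11 higher and 2 lower.

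Markers of other cell types and of hepatocytes moved mainly at 24 and 48 h. Of 6 hepatocyte markers, 4 fell at 24 h and 5 at 48 h and none rose at either, with summed linear levels of 258107 to 320464 in acetaminophen livers and 494673 to 525888 in vehicle livers at 24 h, and of 259493 to 348423 in acetaminophen livers and 512443 to 575091 in vehicle livers at 48 h. Of 6 neutrophil markers 5 were tested, of which 3 rose at 24 h, and 4 rose and 1 fell at 48 h, with S100a8 at 2.57 at 24 h and 3.76 at 48 h. The marker that fell was Csf3r, at -0.47. The summed level of the 5 was 25641 to 41793 in acetaminophen livers and 16923 to 19525 in vehicle livers at 24 h, and 21113 to 29662 in acetaminophen livers and 24728 to 29961 in vehicle livers at 48 h. Csf3r weighed most in that sum, with a mean log2 intensity of 14.1 against 6.12 to 8.80 for the other 4. Of 6 macrophage markers, 3 rose at 48 h, with summed levels of 9323 to 12670 in acetaminophen livers and 1850 to 1935 in vehicle livers. That sum followed Marco, whose ratio was 3.83, while the other 5 lay between 0.07 and 0.77 and the list's median was 0.34. Of 3 biliary markers tested, only Sox9 rose, at 8, 24 and 48 h, at 0.63, 0.58 and 1.09. Krt7 and Krt19 were not called, at -0.09 and -0.43 at 8 h, -0.20 and -0.29 at 24 h, and 0.38 and 0.44 at 48 h. Of 4 endothelial markers only Cdh5 rose, at 48 h, at 1.50. Pecam1, Stab2 and Kdr were not called there, at -0.13, 0.20 and -0.88, and the list's median was 0.04. None of 4 stellate cell and 4 lymphocyte markers was called at any time. No hepatocyte, neutrophil or macrophage marker fell or rose at 3 h, where the hepatocyte sum was 491138 to 545967 in acetaminophen livers and 340083 to 362660 in vehicle livers, and at 8 h 1 hepatocyte marker rose. The part of these cell types in the members' ratios was not tested.

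**Figure D1:**
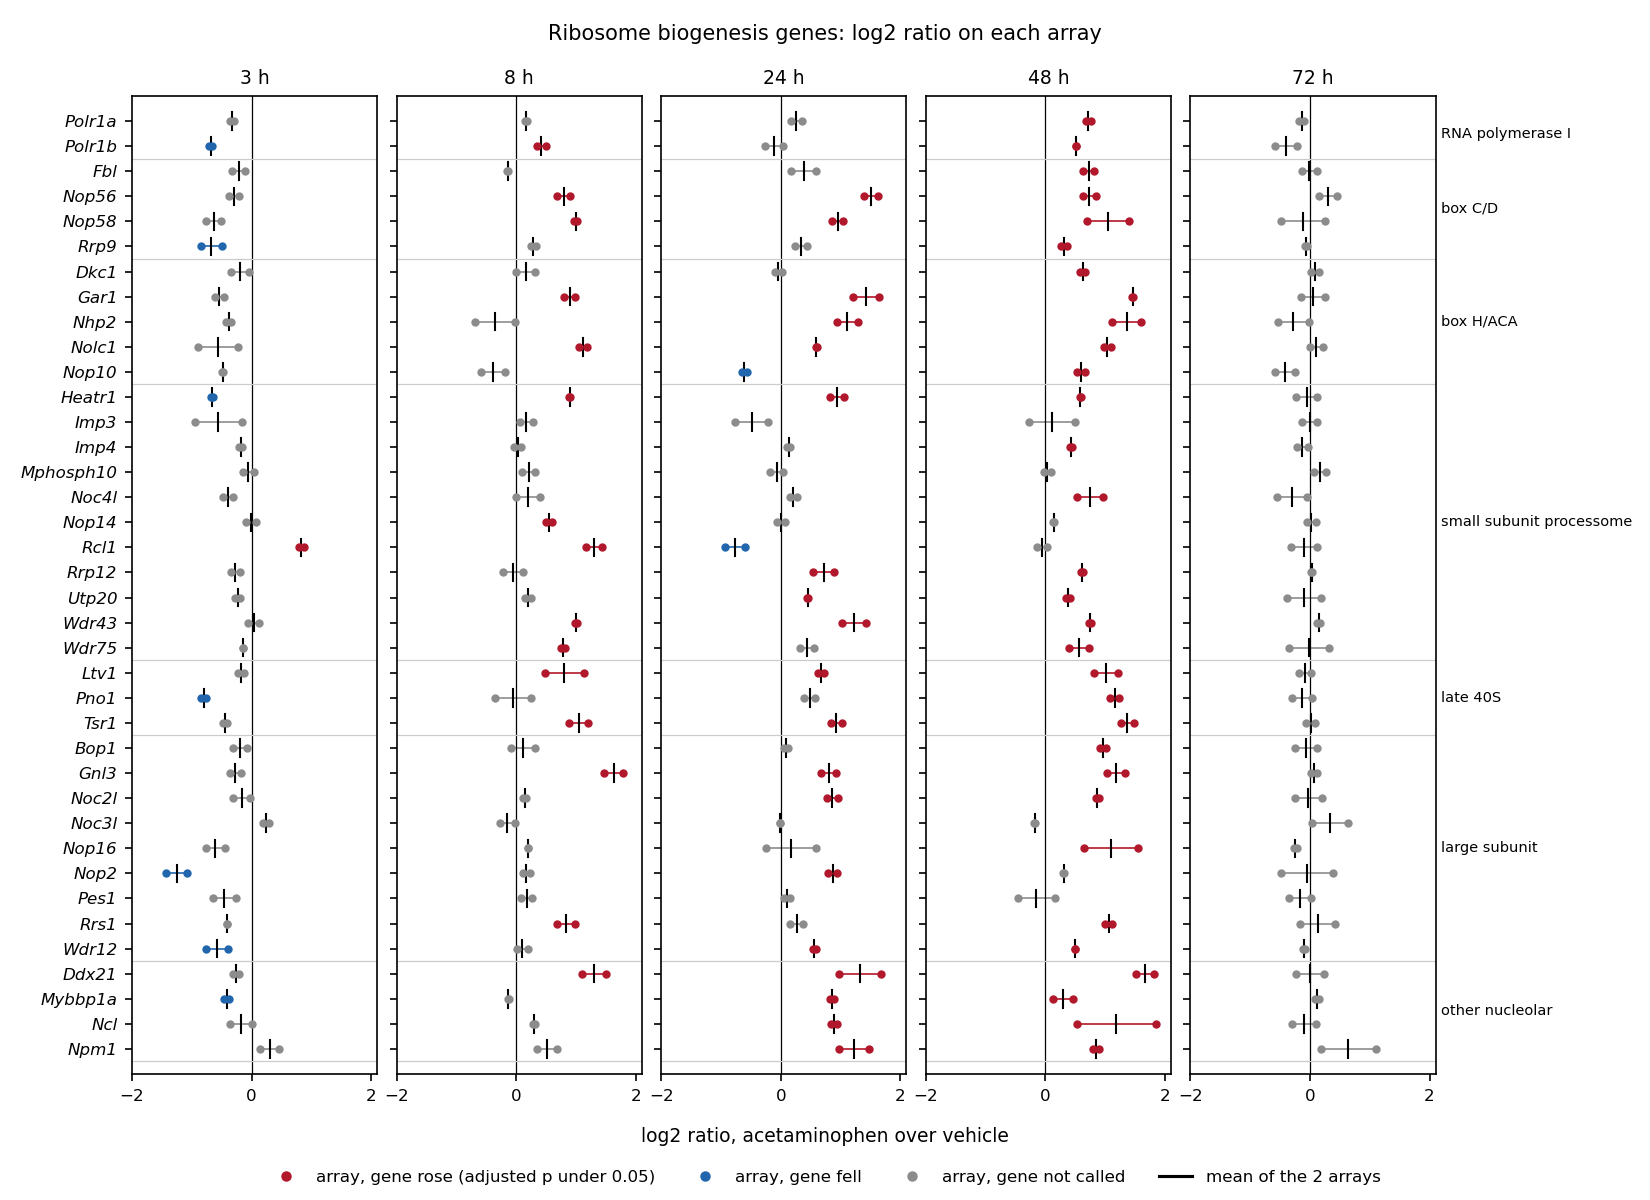
Log2 ratio of acetaminophen over vehicle for each of the 38 genes (rows, grouped by role) at the 5 time points (panels). Points are the 2 arrays, joined by a line, black ticks are their means, and colour marks genes that rose, fell or were not called: the points lie mostly left of 0 at 3 h, where 7 genes fell, and mostly right of 0 at 48 h, where 31 rose.

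The 2 members that encode subunits of RNA polymerase I both rose at 48 h, and 1 fell at 3 h. Polr1b, which encodes the second largest core subunit (probe at chromosome 2, 128951870 to 128951929 in mm9), had log2 ratios of -0.71 and -0.66 at 3 h (mean -0.69 ± 0.11, adjusted p = 0.0124). It had 0.35 and 0.49 at 8 h (mean 0.42 ± 0.11, adjusted p = 0.0402) and 0.51 and 0.52 at 48 h (mean 0.52 ± 0.11, adjusted p = 0.00878), but lay on both sides of 0 at 24 h, with -0.26 and 0.04. Polr1b thus fell at 3 h and rose at 8 and 48 h, though the 8 h call was lost in 12 of 23 alternative settings, and its acetaminophen and vehicle levels did not overlap at these 3 times. Polr1a, the largest catalytic subunit, was called at 48 h alone, with 0.72 ± 0.08 (adjusted p = 0.00037).

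Of the 4 members that are box C/D proteins, which form the RNPs that guide ribose methylation, 2 rose at 8 h, 2 at 24 h and all 4 at 48 h. Nop56, a core scaffold protein (chromosome 2, 130104982 to 130105041), had log2 ratios of 0.90 and 0.69 at 8 h (mean 0.80 ± 0.11, adjusted p = 0.00339). Its ratios were 1.62 and 1.39 at 24 h (mean 1.51 ± 0.11, adjusted p = 8.8e-05) and 0.63 and 0.84 at 48 h (mean 0.74 ± 0.11, adjusted p = 0.00171). The 24 h value was the largest rise of any member at that time, and both arrays were well above the levels in vehicle livers. Nop58, its partner, had 0.97 and 1.02 at 8 h (mean 1.00 ± 0.20, adjusted p = 0.0133), 1.05 and 0.85 at 24 h (mean 0.95 ± 0.20, adjusted p = 0.0111) and 0.70 and 1.41 at 48 h (mean 1.05 ± 0.20, adjusted p = 0.00452). Both arrays of Nop58 were high at all 3 times, while the 48 h arrays stood further apart. The methyltransferase fibrillarin (Fbl) was called at 48 h alone, at 0.72 ± 0.12 (adjusted p = 0.00264). Rrp9, a protein of the snoRNP that directs early cuts of the precursor, fell at 3 h, at -0.67 ± 0.10 (adjusted p = 0.00892), and rose at 48 h, at 0.32 ± 0.10 (adjusted p = 0.0434). The 48 h call of Rrp9 was lost in 16 of 23 alternative settings.

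The 5 members that are box H/ACA proteins, whose RNPs guide pseudouridine formation, were split at 24 h, with 3 higher, 1 lower and 1 not called. All 5 rose at 48 h. Gar1, a core subunit (chromosome 3, 129527855 to 129527914), had log2 ratios of 0.99 and 0.81 at 8 h (mean 0.90 ± 0.13, adjusted p = 0.00353), 1.65 and 1.21 at 24 h (mean 1.43 ± 0.13, adjusted p = 0.000194) and 1.45 and 1.47 at 48 h (mean 1.46 ± 0.13, adjusted p = 0.000137). Its 24 and 48 h means were both the second largest rise among the members at their time, and no acetaminophen array overlapped a vehicle array. Nhp2, another core subunit (chromosome 11, 51436872 to 51436931), was not called at 8 h, with -0.69 and -0.02, and had 1.29 and 0.94 at 24 h (mean 1.12 ± 0.19, adjusted p = 0.00446) and 1.12 and 1.60 at 48 h (mean 1.36 ± 0.19, adjusted p = 0.00112). The 24 h ratio of Nhp2 exceeded its 8 h ratio by 1.47 ± 0.27 (adjusted p = 0.0119). Nop10, the smallest core subunit (chromosome 2, 112102712 to 112102771), went the other way, with -0.65 and -0.57 at 24 h (mean -0.61 ± 0.12, adjusted p = 0.00776), and then 0.53 and 0.67 at 48 h (mean 0.60 ± 0.12, adjusted p = 0.00544). Its 4 arrays before 24 h were all below 0, with -0.47 and -0.49 at 3 h and -0.18 and -0.58 at 8 h, without passing the test there. The synthase dyskerin (Dkc1), which binds these subunits, was called at 48 h alone, at 0.63 ± 0.11 (adjusted p = 0.00294). Nolc1, a snoRNP chaperone, rose at 8, 24 and 48 h, by 1.12 ± 0.14 (adjusted p = 0.00208), 0.59 ± 0.14 (adjusted p = 0.0211) and 1.04 ± 0.14 (adjusted p = 0.000985). Its second probe gave smaller values at these times, at 0.30, -0.06 and 0.29, and was not called at 24 h.

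Among the 11 members of the small subunit processome and its associates, 5 rose at 8 h, 4 rose and 1 fell at 24 h, and 7 rose at 48 h. Heatr1, a large scaffold protein that also bears on polymerase I transcription (chromosome 13, 12531103 to 12531160), had log2 ratios of -0.64 and -0.67 at 3 h (mean -0.65 ± 0.10, adjusted p = 0.0102) and 0.89 and 0.91 at 8 h (mean 0.90 ± 0.10, adjusted p = 0.00134). Later it had 0.82 and 1.06 at 24 h (mean 0.94 ± 0.10, adjusted p = 0.000445) and 0.58 and 0.59 at 48 h (mean 0.59 ± 0.10, adjusted p = 0.00305). Heatr1 was thus low on both arrays at 3 h and high on both at 8, 24 and 48 h, with no overlap of levels at any of the 4 times. Wdr43 rose at 8, 24 and 48 h, by 1.01 ± 0.11 (adjusted p = 0.000967), 1.22 ± 0.11 (adjusted p = 0.000149) and 0.75 ± 0.11 (adjusted p = 0.00109). Its second probe was called higher at 8 and 48 h, at 0.99 and 0.95, but not at 24 h, at 0.41. Wdr75, which like Wdr43 belongs to the subcomplex that binds the precursor first, rose at 8 and 48 h, at 0.78 ± 0.16 (adjusted p = 0.0124) and 0.56 ± 0.16 (adjusted p = 0.0244). Nop14, a small subunit factor, rose at 8 h alone, at 0.55 ± 0.09 (adjusted p = 0.00521). Rrp12, known in yeast as an export factor, rose at 24 and 48 h, at 0.72 ± 0.12 (adjusted p = 0.00295) and 0.62 ± 0.12 (adjusted p = 0.00405).

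Rcl1, which in yeast is needed for an early cut of the precursor, was higher early and lower at 24 h. Its log2 ratios (probe at chromosome 19, 29217877 to 29217936) were 0.87 and 0.79 at 3 h (mean 0.83 ± 0.13, adjusted p = 0.0106) and 1.17 and 1.43 at 8 h (mean 1.30 ± 0.13, adjusted p = 0.000824), and then -0.93 and -0.59 at 24 h (mean -0.76 ± 0.13, adjusted p = 0.00443). Both arrays were above every vehicle level at 3 and 8 h and below every vehicle level at 24 h. The 24 h ratio was lower than the 8 h ratio by a log2 difference of -2.06 ± 0.19 (adjusted p = 0.000674). Rcl1 was the only member that rose at 3 h, and it was one of the 2 that fell at 24 h, the other being Nop10.

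The remaining genes of this group were called at 24 and 48 h, at 48 h alone, or at no time. Utp20, a scaffold protein and the dimmest member (chromosome 10, 88209709 to 88209768), had 0.45 and 0.45 at 24 h (mean 0.45 ± 0.12, adjusted p = 0.038) and 0.35 and 0.40 at 48 h (mean 0.38 ± 0.12, adjusted p = 0.0492). The levels did not overlap at either time, but the calls were lost in 14 of 22 alternative settings at 24 h and in 16 of 22 at 48 h. Imp4, a partner of the snoRNA-binding Mphosph10, rose at 48 h by 0.42 ± 0.08 (adjusted p = 0.00532), and Noc4l, whose yeast form binds Nop14, by 0.75 ± 0.16 (adjusted p = 0.00715). Imp3 and Mphosph10 were called at no time point. The arrays of Imp3 stood at -0.76 and -0.21 at 24 h and -0.28 and 0.50 at 48 h, and the second probe of Mphosph10 was called higher at 48 h, at 0.66.

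All 3 members that act in late small subunit maturation rose at 48 h. Pno1, the partner of the nuclease that makes the last cut of the small subunit RNA (chromosome 11, 17103532 to 17103591), had log2 ratios of -0.76 and -0.84 at 3 h (mean -0.80 ± 0.15, adjusted p = 0.0185). It then had 1.23 and 1.09 at 48 h (mean 1.16 ± 0.15, adjusted p = 0.000601). Both arrays were low at 3 h and high at 48 h, and at 8 h they lay on either side of 0, with 0.24 and -0.35. Tsr1, a GTPase-like protein that blocks early translation by the new particle (chromosome 11, 74722409 to 74722468), had 1.21 and 0.89 at 8 h (mean 1.05 ± 0.11, adjusted p = 0.000909), 1.03 and 0.83 at 24 h (mean 0.93 ± 0.11, adjusted p = 0.000629) and 1.26 and 1.49 at 48 h (mean 1.37 ± 0.11, adjusted p = 8.54e-05). It had the smallest p of the F test over time among the members (adjusted p = 0.000694), and its 6 arrays from 8 to 48 h were all above the vehicle levels of the same time point. Ltv1, an assembly factor known in yeast to leave the particle late, rose at the same 3 times, at 0.81 ± 0.16 (adjusted p = 0.011), 0.67 ± 0.16 (adjusted p = 0.0167) and 1.01 ± 0.16 (adjusted p = 0.00157).

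Of the 9 members that are large subunit factors, 2 fell at 3 h, 2 rose at 8 h, 4 at 24 h and 6 at 48 h. Nop2, an RNA cytosine methyltransferase long known as a proliferation antigen (chromosome 6, 125094661 to 125094720), had log2 ratios of -1.43 and -1.08 at 3 h (mean -1.25 ± 0.18, adjusted p = 0.00726). This was the largest fall of any member, and the acetaminophen levels were below both vehicle levels. It later had 0.95 and 0.79 at 24 h (mean 0.87 ± 0.18, adjusted p = 0.0105), higher on both arrays, and at 48 h it was not called, with 0.31 and 0.30. Gnl3, the nucleolar GTPase nucleostemin (chromosome 14, 31826877 to 31826936), had 1.79 and 1.47 at 8 h (mean 1.63 ± 0.12, adjusted p = 0.000217), 0.93 and 0.68 at 24 h (mean 0.80 ± 0.12, adjusted p = 0.00199) and 1.03 and 1.33 at 48 h (mean 1.18 ± 0.12, adjusted p = 0.000221). Its 8 h value was the largest rise of a member at that time, and levels did not overlap at any of the 3 times.

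The PeBoW complex, which acts on the large subunit precursor, is formed by Pes1, Bop1 and Wdr12. Its subunit Wdr12 fell at 3 h, at -0.58 ± 0.10 (adjusted p = 0.0164), and rose at 24 and 48 h, at 0.56 ± 0.10 (adjusted p = 0.00539) and 0.49 ± 0.10 (adjusted p = 0.007); its second probe was called at none of these times, at -0.33, 0.00 and 0.15. Bop1 rose at 48 h alone, at 0.96 ± 0.13 (adjusted p = 0.000751). Pes1 was called at no time point, and its arrays disagreed at 48 h, with 0.15 and -0.46. Rrs1, which in yeast brings a small ribosomal RNA into the large subunit, rose at 8 and 48 h, at 0.83 ± 0.14 (adjusted p = 0.007) and 1.06 ± 0.14 (adjusted p = 0.000861). Noc2l rose at 24 and 48 h, at 0.87 ± 0.12 (adjusted p = 0.00159) and 0.87 ± 0.12 (adjusted p = 0.00105), while Noc3l, for which Noc2 is the partner in yeast, was called at no time point and stood at -0.18 ± 0.14 at 48 h. Nop16, a large subunit factor, rose late, with 0.64 and 1.55 at 48 h (mean 1.10 ± 0.23, adjusted p = 0.00783), both above vehicle but far apart.

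The 4 remaining nucleolar proteins all rose at 24 and at 48 h. Ddx21, an RNA helicase that links polymerase transcription with RNA processing (chromosome 10, 62044862 to 62044921), had log2 ratios of 1.50 and 1.09 at 8 h (mean 1.30 ± 0.19, adjusted p = 0.00342), 1.67 and 0.97 at 24 h (mean 1.32 ± 0.19, adjusted p = 0.00161) and 1.52 and 1.83 at 48 h (mean 1.67 ± 0.19, adjusted p = 0.000364). The 48 h value was the largest rise among the members, and none of its 6 arrays from 8 to 48 h overlapped vehicle. The second probe of Ddx21 gave lower values, at 0.67, -0.04 and 0.39, and was called at 8 and 48 h but not at 24 h, and at 3 h it was called lower, at -0.72, where the first probe was not called. Npm1, the chaperone nucleophosmin and the member with the highest mean intensity (chromosome 11, 33056689 to 33056991), had 1.48 and 0.97 at 24 h (mean 1.23 ± 0.21, adjusted p = 0.00454) and 0.79 and 0.89 at 48 h (mean 0.84 ± 0.21, adjusted p = 0.0171). All 4 of its probes were called higher at both times, over a range of 0.66 to 1.23 at 24 h and 0.84 to 1.96 at 48 h. Nucleolin (Ncl), an abundant RNA-binding protein, had 0.94 and 0.85 at 24 h (mean 0.89 ± 0.26, adjusted p = 0.0459) and 0.52 and 1.85 at 48 h (mean 1.19 ± 0.26, adjusted p = 0.00897), with close arrays at 24 h and distant ones at 48 h. Its second probe was called higher at 24 h, at 0.95, but not at 48 h, at 0.34, and the 24 h call of the first was lost in 12 of 23 alternative settings. Mybbp1a, a nucleolar regulator that binds polymerase I (chromosome 11, 72264991 to 72265050), had -0.46 and -0.37 at 3 h (mean -0.42 ± 0.09, adjusted p = 0.0439), 0.83 and 0.89 at 24 h (mean 0.86 ± 0.09, adjusted p = 0.000452) and 0.12 and 0.46 at 48 h (mean 0.29 ± 0.09, adjusted p = 0.0458). It was low at 3 h and high at 24 h on both arrays, without overlap of levels. Its calls at 3 h and 48 h were lost in 15 and 16 of 23 alternative settings.

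Grouped by time course, 10 members rose at 8, 24 and 48 h, namely Nop56, Nop58, Ddx21, Wdr43, Nolc1, Gar1, Tsr1, Ltv1, Gnl3 and Heatr1. Another 8 rose at 24 and 48 h, 3 at 8 and 48 h, and 10 at 48 h without a call at 8 h or a rise at 24 h. Nop14 and Rcl1 rose at 8 h and Nop2 at 24 h, and not at the other 2 of these times. The 4 members never called were Pes1, Noc3l, Imp3 and Mphosph10. In all, 9 members were called in opposite directions at different times, 7 of which fell at 3 h and rose later, namely Nop2, Pno1, Wdr12, Polr1b, Rrp9, Mybbp1a and Heatr1. Of the 10 members with more than 1 probe, none had probes called in opposite directions at the same time.

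Differences between neighbouring time points were tested directly. The ratio was higher at 8 than at 3 h for 13 members and lower for 0, where 1.14% of all genes were higher and 0.48% lower. Gnl3 and Nolc1 differed most, by 1.90 ± 0.17 (adjusted p = 0.00731) and 1.68 ± 0.20 (adjusted p = 0.0137). This count was 0 without mouse 1 at 3 h, without mouse 2 at 8 h or with slide as a block, 3 without mouse 3 at 8 h and 6 without mouse 3 at 3 h. Within the slide that held both a 3 h and an 8 h array, the median member was higher at 8 h by 0.67 and 36 of 38 were higher, and between the arrays of the other scan day by 0.62, with 34 higher.

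From 8 to 24 h, 5 members had a higher ratio and 3 a lower one, where 4.37% and 7.31% of all genes did. Nhp2 and Mybbp1a were higher, the second by 0.99 ± 0.13 (adjusted p = 0.0031), and Rcl1, Gnl3 and Nop14 were lower. The count was 4 without either 24 h array, 2 without mouse 2 and 5 without mouse 3 at 8 h. From 24 to 48 h, 7 were higher and 2 lower, where 10% and 3.44% of all genes were. Nop10 was higher by 1.21 ± 0.17 (adjusted p = 0.00485) and Bop1 by 0.87 ± 0.18 (adjusted p = 0.0168), and Nop56 was lower by a log2 difference of -0.77 ± 0.16 (adjusted p = 0.0188). This count was 1 without mouse 1 and 4 without mouse 3 at 24 h, 3 without either 48 h array and 5 without either 3 h array.

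From 48 to 72 h the ratio was lower for 25 members and higher for 0, where 13.2% of all genes were lower and 9.06% higher. Ddx21 and Nhp2 differed most, by -1.68 ± 0.27 (adjusted p = 0.00377) and -1.64 ± 0.27 (adjusted p = 0.00467). On the slide of scan day 1 that held both times the median member was lower by a log2 difference of -0.82, and on that of day 2 by -0.65, with 33 and 35 of 38 lower. Without mouse 1 at 72 h 11 were called and without mouse 3 at 48 h 12. Over all 5 time points the F test called 31 members, where 29.5% of all genes were called, and the 7 not called were Ncl, Npm1, Pes1, Noc3l, Imp3, Mphosph10 and Utp20.

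**Figure D2:**
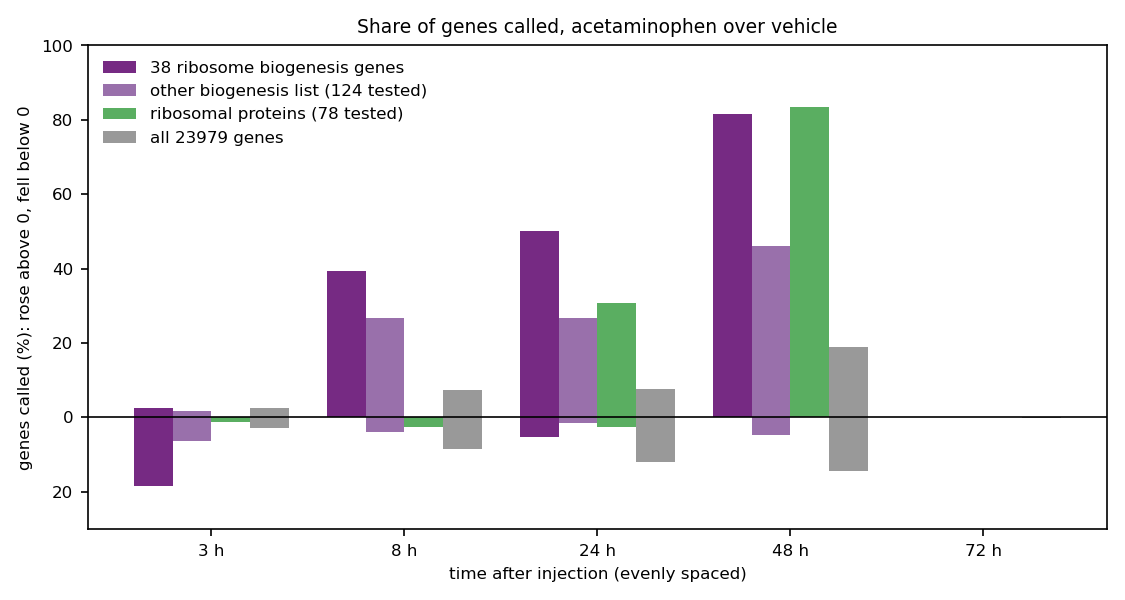
Percentage of genes that rose (bars above 0) or fell (bars below 0) at each time point in the 38 ribosome biogenesis genes, in a longer list of other biogenesis factors, in ribosomal protein genes and in all genes. At 8 h 15 of the 38 rose and 0 of 78 ribosomal protein genes did, whereas at 48 h 31 of 38 and 65 of 78 rose.

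The ratios rest on levels in both channels, and these were also examined alone, as log2 intensities after scaling between arrays. In acetaminophen livers, 13 members were higher and 1 lower at 24 h than at 3 h, where 6.39% of all genes were higher and 6.96% lower. At 48 h, 8 were higher and 1 lower, where 6.81% and 4.66% of all genes were, and at 72 h, 0 were higher and 2 lower, where 1.87% and 3.52% were. With the software's processed signals these counts were 7 and 1 at 24 h, 3 and 0 at 48 h, and 0 at 72 h. Of all 23979 genes, 1217 and 1383, 710 and 839, and 235 and 475 were then higher and lower at these times. At 8 h, 1 was higher and 0 lower, where 0.238% and 0.00417% were, and at an unadjusted p under 0.05 15 were higher and 0 lower, where 7.67% of all genes passed in either direction. Both acetaminophen levels lay above both 3 h levels for 27, 24 and 25 of 38 members at 8, 24 and 48 h, where 23.4%, 26.1% and 27.6% of all genes did, and below both for 20 at 72 h, where 20% did. The median member differed from its 3 h level by 0.33, 0.44, 0.35 and -0.30 at 8, 24, 48 and 72 h. Over time, 19 members differed by the F test, where 22.2% of all genes did.

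In vehicle livers, the members lay lower at the later times than at 3 h. At 24 h, 0 were higher and 4 lower than at 3 h, where 1.34% of all genes were higher and 0.684% lower, at 48 h, 0 were higher and 17 lower, where 2.04% and 3.32% were, and at 72 h, 0 were higher and 6 lower, where 0.43% and 0.688% were. The median member differed from its 3 h level by -0.35, -0.36, -0.62 and -0.52 at 8, 24, 48 and 72 h, while that of all genes moved by at most 0.04. Both vehicle levels lay below both 3 h levels for 26, 26, 30 and 32 of 38 members at the same times, where 17%, 18%, 23.2% and 21.2% of all genes did. By the F test 6 members differed, where 2.26% of all genes did. At 8 h limma called 0 members lower, and 17 were lower and 0 higher at an unadjusted p under 0.05, where 5.22% of all genes passed in either direction.

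The calls in vehicle livers depended on the settings in both directions. Arrays are named here by their acetaminophen mouse, and the block on mouse number used those numbers too. By the labels the vehicle mouse was number 2 on each lower-numbered array. On the arrays of acetaminophen mouse 3 it was number 3, except number 1 at 48 h. The counts at 24 h, at 72 h and by the F test were all 0 without mouse 1 or without mouse 3 at 3 h, with an offset of 0 in the background correction and with the scanner software's processed signals, and were 1, 0 and 0 with slide as a block. The F test also gave 0 without any one of the 24 h or 72 h arrays, 2 without mouse 3 at 8 h and 3 without mouse 1 at 48 h, and the count at 24 h or 72 h was 0 without either array of that time. Other settings raised them: with the mouse number as a block they were 8, 15 and 16, with scan day as a block 8, 14 and 15, and with background over all spots the count at 72 h was 10. Of all genes, 164 and 165 were lower at 24 and 72 h in the main fit. With an offset of 0 these were 66 and 22, with the software's signals 52 and 9, and with slide as a block 89 and 0. They were 385 and 814 with the mouse number and 342 and 581 with scan day, and 442 at 72 h with background over all spots. The 17 at 48 h were 1 with an offset of 0, 3 with median scaling of the channels, and 0 with the software's signals or with slide as a block, against 23 with the mouse number and 22 with scan day as a block. Of all genes, 796 were called lower at 48 h in the main fit, 18 with an offset of 0 and 116 with median scaling. The number was 0 with the software's signals or slide as a block, 1798 with the mouse number and 1707 with scan day. The median change stayed below 0 at every later time under each of the scalings tried, which were Aquantile, median and quantile scaling and the software's signals. Time since the injection and time since the start of the fast ran together and cannot be told apart.

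**Figure D3:**
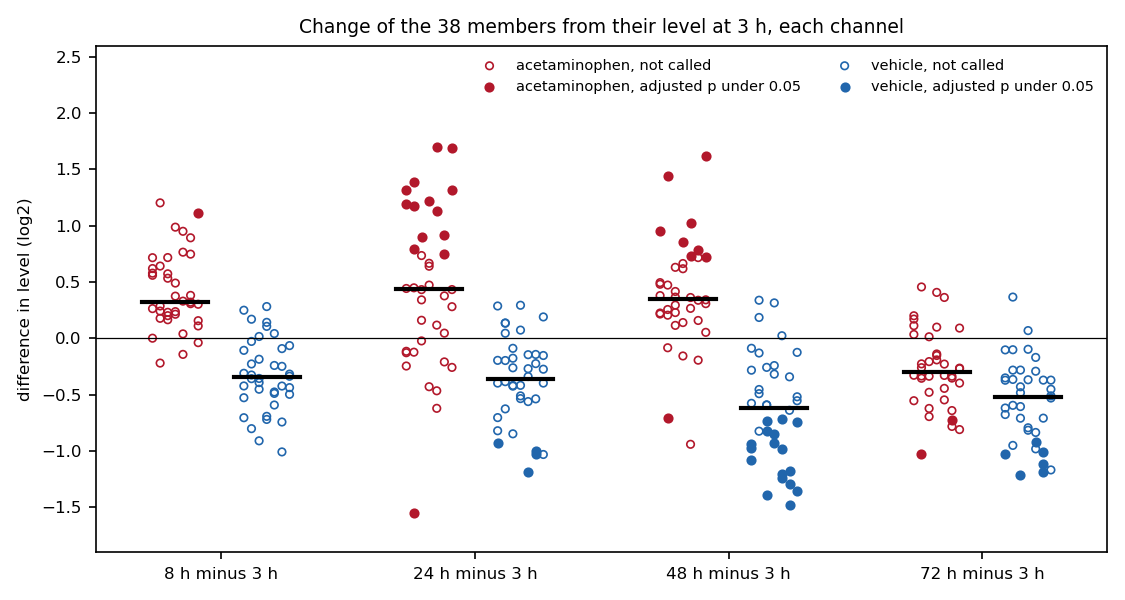
Difference in level (log2) of each of the 38 genes from its own 3 h level, in acetaminophen livers (left of each pair) and vehicle livers (right). Filled points passed the test and black bars are medians: the vehicle medians lie between -0.62 and -0.35 at all 4 times, and the acetaminophen medians lie above 0 until 48 h and at -0.30 at 72 h.

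Single members show how the 2 channels combine. Gar1 stood at 11.31 and 10.77 in acetaminophen livers at 24 h, against 9.66 and 9.56 in vehicle livers. At 3 h it stood at 9.13 and 9.55 in acetaminophen livers, against 9.74 and 10.02 in vehicle livers. The acetaminophen level was higher at 24 than at 3 h by 1.70 ± 0.24 (adjusted p = 0.00243), the largest such rise of a member. Nhp2 was higher by 1.69 ± 0.28 (adjusted p = 0.00486), at 12.44 and 12.66 at 24 h against 10.84 and 10.88 at 3 h, and Ddx21 by 1.39 ± 0.24 (adjusted p = 0.00625), at 9.84 and 9.36 against 8.03 and 8.39. In these 3 genes both later arrays lay above both earlier ones. Rcl1 in acetaminophen livers was at 9.43 and 9.25 at 24 h and 10.03 and 9.69 at 72 h, against 10.81 and 10.97 at 3 h, differences of -1.55 ± 0.19 (adjusted p = 0.00128) and -1.03 ± 0.19 (adjusted p = 0.0188). Its vehicle levels ranged from 9.52 to 10.37 with no call.

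Tsr1 and Gnl3 were among the members whose vehicle level fell. Tsr1 was at 7.12 and 7.01 at 24 h and 6.96 and 6.79 at 72 h in vehicle livers, against 8.08 and 8.04 at 3 h, differences of -0.997 ± 0.17 (adjusted p = 0.0285) and -1.18 ± 0.17 (adjusted p = 0.0306). In acetaminophen livers Tsr1 was at 6.90 and 6.88 at 72 h against 7.60 and 7.63 at 3 h, a difference of -0.73 ± 0.18 (adjusted p = 0.0492). Both groups thus stood lower at 72 than at 3 h, though only 1 of the 2 acetaminophen arrays at 72 h was well above background. Gnl3 in vehicle livers was at 7.49 and 7.16 at 24 h and 7.24 and 7.24 at 72 h, against 8.25 and 8.45 at 3 h, differences of -1.02 ± 0.18 (adjusted p = 0.0303) and -1.11 ± 0.18 (adjusted p = 0.0389). Its acetaminophen level at 24 h, 8.42 and 7.84, overlapped that at 3 h, 7.90 and 8.27, so that its higher ratio at 24 h went with the lower vehicle level. Pes1 differed by -1.18 ± 0.21 (adjusted p = 0.0343) at 24 h and Nop58 by -1.21 ± 0.19 (adjusted p = 0.04) at 72 h in vehicle livers.

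**Figure D4:**
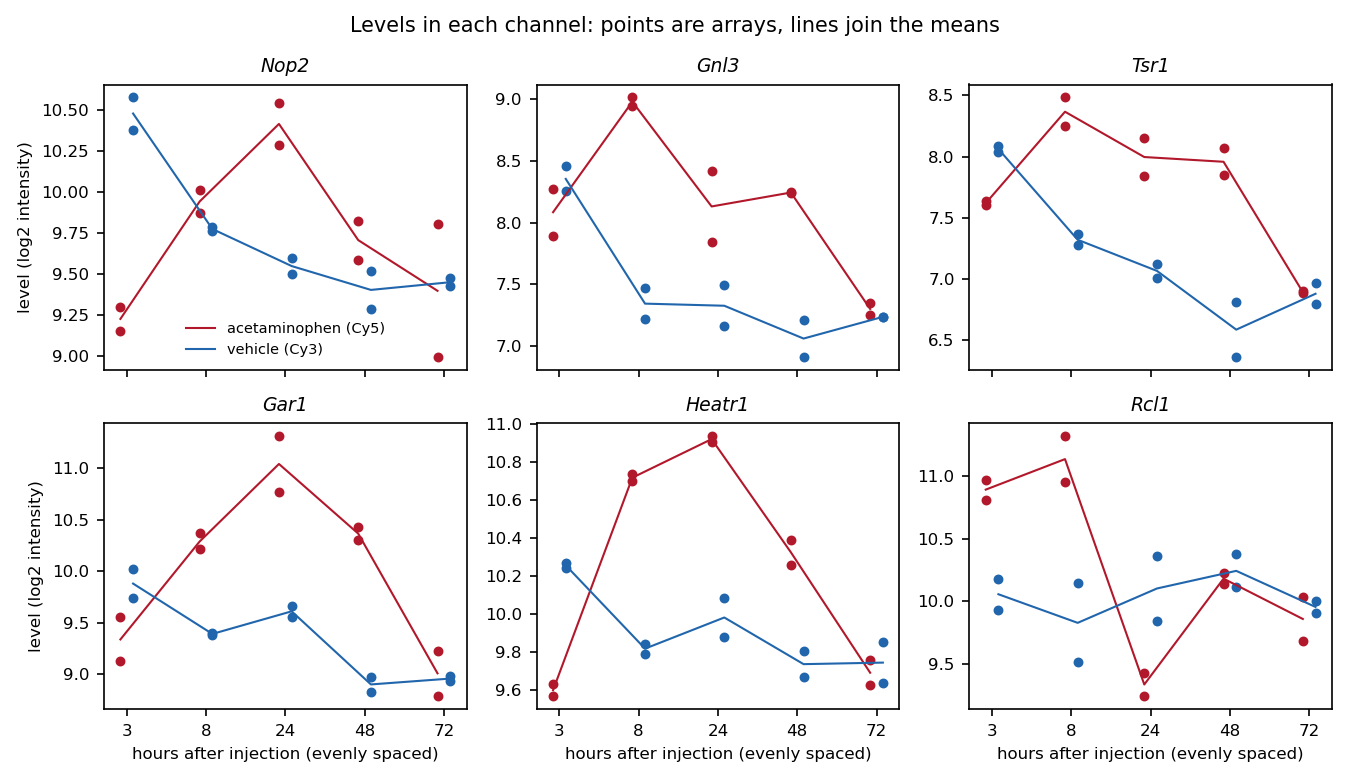
Levels (log2 intensity after scaling between arrays) of 6 members in acetaminophen livers and vehicle livers at each time point, with a point per array and lines through the means. The means of Nop2, Gnl3, Tsr1, Gar1 and Heatr1 cross from below vehicle at 3 h to above it at 8 h and lie close to it at 72 h. Of these genes only Heatr1 was called at both 3 and 8 h, and the 72 h arrays of Nop2 lay on either side of vehicle (-0.48 and 0.38). Rcl1 lies above vehicle at 3 and 8 h and below it at 24 h.

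Other genes of the pathway were read from a list of 133 further biogenesis factors, of which 124 were tested. At 3 h 2 rose and 8 fell, at 8 h 33 rose and 5 fell, at 24 h 33 rose and 2 fell, and at 48 h 57 rose and 6 fell, with medians of -0.18, 0.18, 0.25 and 0.36. Of all genes, 2.45%, 7.35%, 7.67% and 18.9% rose at these times and 2.93%, 8.43%, 12.1% and 14.3% fell. At 3 h the largest falls were those of Bysl (-0.71 ± 0.11), a small subunit factor, and Mrto4 (-0.68 ± 0.12), a large subunit factor, and the rises those of Ubtf (1.32 ± 0.15), the upstream binding factor of polymerase I, and Sdad1 (0.86 ± 0.20). At 8 h Myc (2.27 ± 0.21), a transcription factor known to activate ribosome biogenesis genes, and Taf1d (1.87 ± 0.14), a polymerase I initiation factor, rose most, and Snu13 (-0.68 ± 0.11), a box C/D core protein, and Bud23 (-0.58 ± 0.14), a methyltransferase of small subunit RNA, fell most. At 24 h Eif6 (1.79 ± 0.20), which keeps large subunits from joining early, and Ppan (1.23 ± 0.18) rose most, and Nol7 (-0.43 ± 0.11) and Exosc5 (-0.39 ± 0.11), a subunit of the RNA exosome, fell most. At 48 h Eif6 (2.42 ± 0.20) and Las1l (1.68 ± 0.14) rose most, and Sdad1 (-1.24 ± 0.20) and Nop9 (-0.72 ± 0.20) fell most.

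The ribosomal protein genes, whose products are the building blocks of the particle, differed from the assembly factors mainly at 8 h. At 24 h 30.8% of the ribosomal protein genes tested rose, against 50% of the members and 26.6% of the further factors. At 48 h 83.3% rose, against 81.6% of the members and 46.0% of the further factors. Of 79, 78 were tested, and 0 rose and 1 fell at 3 h, 0 rose and 2 fell at 8 h, 24 rose and 2 fell at 24 h, and 65 rose and 0 fell at 48 h, with medians of -0.08, 0.01, 0.23 and 0.92. The shares of all genes at these times are those given for the further factors. Rps18 (-0.52 ± 0.11) fell at 3 h, and Rps15 (-0.53 ± 0.14) and Rpl14 (-0.51 ± 0.14) at 8 h. At 24 h Rps14 (0.91 ± 0.14) and Rpsa (0.82 ± 0.13) rose most and Rps2 (-0.69 ± 0.19) and Rpl35a (-0.36 ± 0.09) fell most. Rps19 (1.98 ± 0.21) and Rps27a (1.90 ± 0.20) rose most at 48 h. Ribosomal protein genes have near-identical processed copies in the genome, so a probe may read more than its named gene. The difference between the lists was not tested.

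Promoter sequence was available for 33 of the 38 members, from RefSeq in the build GRCm38.p6, reaching from 250 bases before to 50 bases after each gene start. Searched as letters on both strands, the E-box CACGTG, the site bound by MYC and related factors, lay in a promoter of 9 of the 33 members and of 8.09% of all 27025 genes with a promoter. The Sp1 motif GGGCGG did so for 23 members and 38.2% of genes, the ETS motif CCGGAA for 12 and 16.7%, and the CRE core TGACG for 13 and 23%. The TATA box TATAAA did so for 2 and 15.7%. A gene can have several promoters, and counted singly the E-box lay in 9 of the members' 36 and in 7.15% of all 32851, the Sp1 motif in 24 and 35.7%, the ETS motif in 13 and 14.9%, the CRE core in 13 and 20.8%, and the TATA box in 2 and 13.6%. The median GC content was 57.5% for the members' 36 promoters and 52.7% for all 32851. In the further biogenesis factors the E-box lay in a promoter of 17 of 109 genes and the ETS motif of 69 of 109. The Sp1 motif did so for 76 of these 109, the CRE core for 58 and the TATA box for 8. Of 58 ribosomal protein genes, 6 held the E-box, 36 the Sp1 motif, 32 the ETS motif, 30 the CRE core and 6 the TATA box.

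The 9 members with an E-box were Imp4, Nop2, Ltv1, Utp20, Pes1, Pno1, Mybbp1a, Tsr1 and Wdr43. Of these, 3 rose at 8 h, 6 at 24 h and 7 at 48 h, with median ratios of 0.18, 0.67 and 0.42. Of the 24 members with a promoter but no E-box, 11 rose at 8 h, 11 at 24 h and 19 at 48 h, with medians of 0.29, 0.39 and 0.67. The median was thus higher without the E-box at 8 and 48 h and higher with it at 24 h, and this difference was not tested.

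The 250 bases before the start are shown, 5′ to 3′ on the gene's own strand, for the members with the largest fall at 3 h (Nop2, chr6:125131633-125131882, plus strand), the largest rise at 8 h (Gnl3, chr14:31019132-31019381, minus strand), the largest change at 24 h (Nop56, chr2:130274162-130274411, plus strand) and the largest change at 48 h (Ddx21, chr10:62602299-62602548, minus strand). Capitals mark every match to the 5 motifs on either strand.
Nop2: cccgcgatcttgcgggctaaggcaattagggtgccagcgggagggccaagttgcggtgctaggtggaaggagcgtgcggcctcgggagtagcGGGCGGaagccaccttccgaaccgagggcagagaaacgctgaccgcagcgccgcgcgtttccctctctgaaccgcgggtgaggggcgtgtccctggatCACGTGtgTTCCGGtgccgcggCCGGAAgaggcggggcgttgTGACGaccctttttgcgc
Gnl3: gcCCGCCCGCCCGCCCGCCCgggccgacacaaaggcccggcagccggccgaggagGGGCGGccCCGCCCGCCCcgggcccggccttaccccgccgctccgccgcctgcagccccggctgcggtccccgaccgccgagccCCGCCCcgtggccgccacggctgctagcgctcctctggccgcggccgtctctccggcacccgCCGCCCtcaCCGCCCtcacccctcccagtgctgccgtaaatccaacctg
Nop56: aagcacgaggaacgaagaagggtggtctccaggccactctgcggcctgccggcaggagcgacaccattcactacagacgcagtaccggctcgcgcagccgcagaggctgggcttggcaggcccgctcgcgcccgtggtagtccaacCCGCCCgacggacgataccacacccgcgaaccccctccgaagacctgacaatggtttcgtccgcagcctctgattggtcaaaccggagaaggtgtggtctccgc
Ddx21: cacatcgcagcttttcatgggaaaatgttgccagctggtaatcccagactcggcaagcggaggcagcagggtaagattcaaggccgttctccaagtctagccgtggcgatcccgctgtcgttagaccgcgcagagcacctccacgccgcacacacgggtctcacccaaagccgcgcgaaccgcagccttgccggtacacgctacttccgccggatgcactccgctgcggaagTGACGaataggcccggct
Nop2 held an E-box that began 60 bases before the start, 2 ETS motifs, 1 Sp1 motif and 1 CRE core. Gnl3 held 10 Sp1 matches, many overlapping, and Nop56 held 1. Ddx21 held 1 CRE core, which began 18 bases before the start, as did that of Nop2.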

How the data were processed

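Fluorescence intensity was read with Agilent Feature Extraction 10.7.3.1, per the file headers, and the deposited files held mean signals, local backgrounds and a log10 ratio of Cy5 over Cy3 for each spot. The authors' deposited value table was a score equal to that log10 ratio times 1.44, with a median of 0 on every array. Probe coordinates are those of the file headers' annotation in mm9.

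Log2 ratios were computed from the deposited intensities with limma 3.58.1 in R 4.3.3: control and outlier spots were left out, normexp background correction with an offset of 50 and loess within arrays were applied, and the brightest kept probe stood for a gene (29587 of 39429 probes kept). Channel levels were scaled between arrays with Aquantile. Models had a coefficient per time point over 10 arrays, leaving 5 residual degrees of freedom.

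The background estimate left out spots whose local background lay more than 50 above their signal, which were 3, 4, 10 and 22 spots on 4 arrays (8 h mouse 3, and 24, 48 and 72 h mouse 1). With them the estimate on 1 array was -528 in Cy5 and -1292 in Cy3, against -5.33 and 4.32 without. This setting was chosen after the counts under both versions had been seen, and it raised several counts. Over all spots the members called were 1 higher and 9 lower at 3 h, 15 and 1 at 8 h, 11 and 2 at 24 h, 28 and 0 at 48 h, and 0 at 72 h.

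The members and lists were chosen with earlier results of these data known. Genes were named in the text by a rule: the largest changes per time point, the smallest p of the F test, genes called in both directions, the largest level changes, and the brightest and dimmest member. Other members were named with their role. Alternatives covered background, normalization, filter, probes, slide, scan day, mouse number and leaving out each array. With 2 arrays per group, the number of arrays limits the precision.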

Additional observations from a re-analysis of the deposited data

Results flagged for a closer look

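The log2 ratio of a member differed between neighbouring time points, by the test of the difference itself (limma, adjusted over all genes), for 13 members between 3 and 8 h, 8 between 8 and 24 h, 9 between 24 and 48 h and 25 between 48 and 72 h. Rcl1 had the largest single difference, with a ratio lower at 24 h than at 8 h by a log2 difference of -2.06 ± 0.19 (adjusted p = 0.000674), against a rise at 8 h on both arrays and a fall at 24 h on both arrays.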

How the results depend on the processing

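With 2 arrays per time point the counts of called members moved with many settings, whereas the median of the members was below 0 at 3 h and above 0 at 8 and 48 h under every alternative tried. Leaving out 1 array gave 1 to 9 members at 3 h, 5 to 15 at 8 h, 9 to 21 at 24 h, 18 to 29 at 48 h and 0 to 0 at 72 h. For neighbouring times it gave 0 to 14 (3 and 8 h), 2 to 11 (8 and 24 h), 1 to 10 (24 and 48 h) and 11 to 24 (48 and 72 h), and 25 to 32 by the F test. For vehicle levels it gave 0 to 4 by the F test, 0 to 5 at 24 h and 0 to 7 at 72 h, and for acetaminophen levels 14 to 20, 8 to 14 and 0 to 1. The medians ranged from -0.36 to -0.31 at 3 h, 0.21 to 0.31 at 8 h, 0.47 to 0.57 at 24 h, 0.63 to 0.72 at 48 h and -0.17 to 0.11 at 72 h. Background over all spots gave 13 members at 24 h and 4 between 8 and 24 h, 10 vehicle and 1 acetaminophen levels that differed between 3 and 72 h, and medians of 0.17, 0.38, 0.67 and 0.045 at 8, 24, 48 and 72 h, the last with its sign turned. An offset of 0 gave 5 members at 3 h, 5 between 3 and 8 h, 4 between 8 and 24 h and 2 between 24 and 48 h, 0 vehicle levels by the F test, at 24 h and at 72 h, 0 acetaminophen levels at 72 h, and medians of -0.39, 0.33, 0.63 and 0.78 from 3 to 48 h. Median centring in place of loess gave 0 members at 3, 8 and 24 h, 8 at 48 h, 0 between any neighbouring times and 1 by the F test, with medians of -1.12, 0.064, 0.99 and -0.38 at 3, 8, 48 and 72 h, turned the median log2 ratio of the members at 24 h to -0.00525, and turned Rcl1 at 3 h to -0.24. The software's ratio and the authors' value table each gave 4 members at 3 h, 1 between 3 and 8 h, 4 between 8 and 24 h and 2 between 24 and 48 h, and medians of -0.47, 0.40 and 0.67 at 3, 8 and 24 h. Slide as a block gave 0 members at 3 h, 0 between 3 and 8 h, 2 between 8 and 24 h and 1 between 24 and 48 h, vehicle levels of 0 by the F test, 1 at 24 h and 0 at 72 h, 0 acetaminophen levels at 72 h, and medians of 0.30 at 8 h and 0.42 at 24 h. Median scaling of the channels gave 3 vehicle levels by the F test and 0 at 24 h, and 9 acetaminophen levels at 24 h and 1 at 72 h, and quantile scaling gave 1 acetaminophen level at 72 h. The software's processed signals gave 0 vehicle levels by the F test, at 24 h and at 72 h, and 9, 8 and 0 acetaminophen levels, and moved the median of all genes by 0.14 at 72 h in both channels. Without background correction the medians were -0.35 at 3 h and 0.51 at 24 h, with the stricter filter -0.35 at 3 h and 0.25 at 8 h, and with the mean of all probes 0.41 at 24 h. Of the 75 single calls, 55 held with the software's ratio, 51 with slide as a block, 63 with an offset of 0 and 8 with median centring. The mouse numbers, which are those of the acetaminophen mice for vehicle levels too, were not taken to pair the arrays in the main fits. The correlation of same-numbered deviations of the ratios lay between -0.07 and 0.32. The correlation within a mouse number that the replicate block estimated was 0.06 for ratios, 0.13 for acetaminophen levels and 0.24 for vehicle levels. These values do not settle the choice for the levels. The lower number went with scan day 1 and mouse 3 with day 2. The replicate block on these numbers changed none of the 75 single ratio calls, and gave vehicle levels of 16 by the F test, 8 at 24 h and 15 at 72 h. Scan day as a fixed block, chosen after seeing the data, kept 73 of the 75 calls (not Rrp9 and Utp20 at 48 h), and gave vehicle levels of 15, 8 and 14. The settings also moved the counts of called levels over all genes. The cause of these movements was not tested.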
